A study of Homo sapiens with 16 samples.

Results

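The immediate early transcription factors are genes that a cell turns on within minutes of a stimulus, before any new protein has to be made. Here they were taken as the 10 genes FOS, FOSB, JUN, JUNB, EGR1, EGR2, EGR3, NR4A1, NR4A2 and IER2, matched by symbol among the 19898 genes of the table. All 10 were found, and all 10 passed the filter on low values, a normalised count of 10 or more in at least 4 libraries, as did 16984 genes in all. The libraries came from SH-SY5Y, a human neuroblastoma cell line, which in every group had been differentiated for 15 days and carried the label of dopamine-like neurons. There were 4 groups of 4 libraries: cells on a 3D scaffold of silk and collagen given MPP, cells on the scaffold left untreated, cells in flat 2D dishes given MPP, and cells in flat dishes left untreated. MPP is 1-methyl-4-phenylpyridinium, a toxin that enters cells by monoamine transporters and inhibits respiratory complex I, and it was given at 1 mM for 48 h from day 13. The study asked how the culture shapes the response to this toxin, which is used to model Parkinson's disease. The cells are a tumour line differentiated toward neurons, and the labels do not state whether replicate libraries were grown apart, so each p-value reflects the spread between these libraries alone. The 2D cells were detached with Accutase and pelleted before freezing, whereas the scaffolds were placed whole into tubes. Culture and handling therefore cannot be told apart in any comparison of 3D with 2D.

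Immediate early genes are kept poised in resting cells. MAP kinases phosphorylate ternary complex factors that sit with SRF on CArG boxes, calcium and cAMP act through CREB on sites that contain TGACG, and the resulting mRNAs are short-lived. FOS, FOSB, JUN and JUNB encode bZIP subunits of the AP-1 dimer, EGR1, EGR2 and EGR3 encode zinc finger factors, and NR4A1 and NR4A2 encode orphan nuclear receptors. IER2 encodes a small nuclear protein of the same early wave. In neurons these genes are known as markers of recent activity, and NR4A2 (Nurr1) is known for its part in dopamine neuron development.

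RefSeq windows from 250 bases before to 50 bases after a gene's start (GRCh38.p14) were found for 8 of the 10 genes, 11 windows in all. Those of FOS, EGR1, JUN and JUNB and the third window of EGR2 are printed, a choice made with the values that follow known. The windows of FOSB, IER2 and NR4A1 and the first and second of EGR2 are not printed. The sequences run 5′ to 3′ on the gene's own strand, and capitals mark CArG boxes, the CREB half-site TGACG, the AP-1 consensus TGANTCA and the related site TGACATCA, on either strand. The regions are chr14:75278578-75278877 (plus strand) for FOS, chr5:138465229-138465528 (plus) for EGR1, chr1:58783998-58784297 (minus) for JUN, chr19:12791236-12791535 (plus) for JUNB and chr10:62816317-62816616 (minus) for EGR2.
FOS: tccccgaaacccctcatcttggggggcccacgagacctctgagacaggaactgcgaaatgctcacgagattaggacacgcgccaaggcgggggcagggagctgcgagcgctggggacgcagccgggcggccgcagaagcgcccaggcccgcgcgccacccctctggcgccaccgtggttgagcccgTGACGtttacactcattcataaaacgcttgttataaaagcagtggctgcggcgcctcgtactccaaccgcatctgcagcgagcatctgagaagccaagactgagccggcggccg
EGR1: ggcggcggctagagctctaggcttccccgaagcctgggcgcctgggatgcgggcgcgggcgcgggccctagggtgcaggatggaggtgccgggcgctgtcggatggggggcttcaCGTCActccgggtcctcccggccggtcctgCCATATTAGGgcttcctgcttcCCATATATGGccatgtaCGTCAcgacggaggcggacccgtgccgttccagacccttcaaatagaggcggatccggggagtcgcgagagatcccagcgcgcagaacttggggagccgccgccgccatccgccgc
JUN: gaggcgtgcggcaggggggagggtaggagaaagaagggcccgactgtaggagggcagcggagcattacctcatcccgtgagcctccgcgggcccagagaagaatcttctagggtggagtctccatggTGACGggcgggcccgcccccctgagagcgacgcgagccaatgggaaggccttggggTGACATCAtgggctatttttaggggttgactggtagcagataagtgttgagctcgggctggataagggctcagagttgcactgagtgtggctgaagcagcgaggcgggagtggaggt
JUNB: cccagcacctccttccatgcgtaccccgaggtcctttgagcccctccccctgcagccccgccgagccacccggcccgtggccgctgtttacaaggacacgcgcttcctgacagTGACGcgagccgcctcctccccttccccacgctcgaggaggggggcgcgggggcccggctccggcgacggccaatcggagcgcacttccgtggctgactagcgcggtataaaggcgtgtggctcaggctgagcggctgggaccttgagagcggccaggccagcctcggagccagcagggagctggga
EGR2: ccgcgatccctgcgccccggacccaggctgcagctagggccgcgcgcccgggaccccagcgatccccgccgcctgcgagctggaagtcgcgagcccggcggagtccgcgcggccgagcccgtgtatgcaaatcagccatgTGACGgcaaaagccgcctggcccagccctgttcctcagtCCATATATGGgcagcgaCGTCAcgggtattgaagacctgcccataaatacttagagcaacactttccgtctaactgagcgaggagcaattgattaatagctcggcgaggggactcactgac

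A CArG box, the site of SRF, was found 105 and 83 bases before the start of EGR1 and 71 bases before the third start of EGR2. It was found in 1.29% of the 35116 windows of all genes. TGACG was in the windows of FOS (64 bases before the start), FOSB (60), JUN (123), JUNB (137), IER2 (140), EGR1 (135 and 66) and EGR2 (110 and 54), and in 24.6% of all windows. TGACATCA, the AP-1-like site of the JUN promoter, lay 67 bases before the start of JUN and was in 2.61% of all windows. GCGNGGGCG, the site that EGR proteins bind, was 198 bases before the start of EGR1 and in the second window of EGR2, against 9.43% of all windows. TGANTCA (7.71% of all windows), TGACGTCA (1.85%, a motif that contains TGACG) and AAAGGTCA, the monomer site of NR4A proteins (1.22%), were in none of the 11 windows. The 2 windows of NR4A1 and the first window of EGR2 held none of the motifs searched. Those of NR4A1 were chr12:52022582-52022881 and chr12:52037465-52037764, in a gene annotated from 52022832 to 52059507. Any other start of NR4A1 was not searched, so its promoters may hold these motifs elsewhere. These matches describe letters in these windows only. The FOS window held no CArG box, but sequence farther from the start was not searched for any gene. A CArG box of FOS, or another motif of these genes, may therefore lie outside the windows.

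The table gives reads per gene divided by 1 size factor per library, called normalised counts here. Libraries held 24589435 to 46359070 reads, and the mean Pearson r of a library with the others of its group was 0.971 to 0.984. Mitochondrially encoded mRNAs made up 1.24% ± 0.207 of reads in MPP 3D libraries, against 4.47% ± 1.61 in untreated 3D libraries, and 0.874% ± 0.0754 in MPP 2D libraries, against 9.62% ± 1.65 in untreated 2D libraries (SD, n = 4 each). Their part in the results was not tested. All 13 listed markers of catecholamine neurons passed the filter, among them TH, the rate-limiting enzyme of catecholamine synthesis, which averaged 5585 normalised counts in untreated 3D and 341 in untreated 2D libraries. DBH, which makes noradrenaline from dopamine, had 82395 or more in every library, so mRNAs of both dopamine and noradrenaline synthesis were present. Of 7 Schwann cell and glia markers, SOX10 had 14 reads in all and was at 0 in 12 of 16 libraries, and of 4 blood and endothelium markers PTPRC, PECAM1 and CDH5 had 34, 15 and 49 reads over all libraries. The mesenchymal neuroblastoma markers summed to 12425.5 to 12759 normalised counts in MPP 3D libraries, against 18642.5 to 20114.5 in untreated 3D, and to 18813 to 20203 in MPP 2D, against 18622 to 19456 in untreated 2D. With MPP, 6 of the 13 catecholamine neuron markers fell and 3 rose in 3D, whereas 2 fell and 4 rose in 2D. Of 9 mesenchymal markers tested 0 rose and 3 fell in 3D, and 1 rose and 1 fell in 2D. By the same test 34.6% of all genes were called in 3D (17.6% lower and 17% higher) and 34.5% in 2D (16.9% lower and 17.7% higher). The 3 of 9 mesenchymal markers called in 3D are near that share. CD68, the only blood and endothelium marker tested, averaged 1016 in untreated 3D and 117 in untreated 2D libraries. The part of these marker shifts in the results was not tested. In bulk RNA, fewer cells of a type and less RNA per cell cannot be told apart.

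MPP lowered most of the immediate early mRNAs on the scaffold and fewer of them in the dish. In 3D, 7 of the 10 genes fell and 1 rose (limma, Benjamini-Hochberg adjusted p under 0.05 over all 16984 genes), where 34.6% of all genes tested were called, 17.6% lower and 17% higher. In 2D, 3 of the 10 fell and 2 rose, where 34.5% of all genes were called, 16.9% lower and 17.7% higher. The median log2 change of the 10 genes was -0.83 in 3D, against 0.003 over all genes, and 0.15 in 2D, against 0.02 over all genes. Of the genes called over the whole table, 49% were higher in 3D and 51.1% in 2D, and scaling libraries to equal totals made this 66% in 3D and 70.3% in 2D, with the median log2 change of all genes moving to 0.10 and 0.12. Scaling to equal totals of nuclear genes made the share 59.3% in 3D and 42.4% in 2D. Under equal totals 1 member rose and 6 fell in 3D, and 4 rose and 3 fell in 2D. The ranges of the 2 groups did not overlap for 8 of the 10 genes in 3D (27.6% of all genes) and for 5 of the 10 in 2D (38.8% of all genes). FOS, EGR1 and IER2 fell in both cultures, NR4A1 rose in both, JUN moved in opposite directions, and JUNB, EGR2 and EGR3 passed the test in 3D alone. Whether the 2 cultures differed was tested as the difference of the MPP effects, and it was called for 5 of the 10 genes, all of them lower in 3D, where 15.3% of all genes were called, 8.32% lower and 7% higher. The share of higher calls over the whole table was 45.7% there, and 66.9% with nuclear totals, under which the same 5 members were called lower. These 5 were FOS, JUN, JUNB, EGR2 and EGR3.

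**Figure D1:**
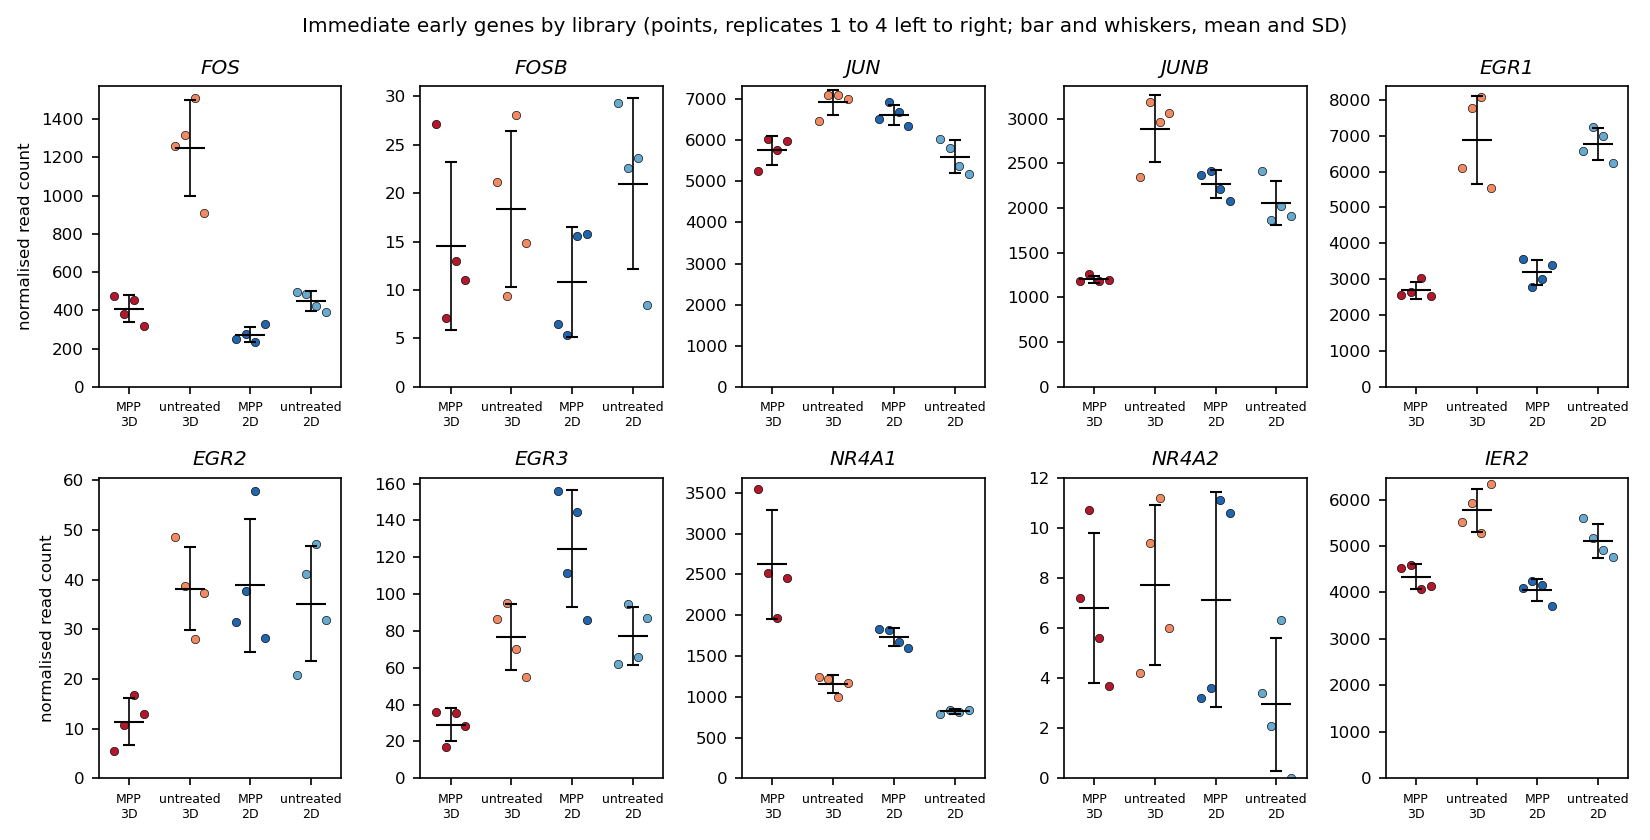
Normalised read counts (linear y axes from 0) of the 10 immediate early genes, with 1 point per library, a bar at each group mean and whiskers of 1 SD, for MPP 3D, untreated 3D, MPP 2D and untreated 2D. NR4A1 is higher with MPP in both cultures (mean 2622 against 1156 in 3D, and 1727 against 819.6 in 2D), while FOS and EGR1 are lower in both.

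FOS, whose protein pairs with JUN proteins and cannot dimerise with itself, fell with MPP in both cultures. It had 477, 381, 454 and 320.3 normalised counts in MPP 3D libraries, against 1263, 1316, 1510.1 and 909.8 in untreated 3D libraries. The 2D libraries held 250.3, 278.5, 236 and 329 in MPP libraries, against 495, 487, 425 and 391 in untreated libraries. Every MPP library lay below every untreated library of its own culture, and the 4 untreated 3D libraries lay above all the others. With MPP, FOS fell by 1.61 on the log2 scale in 3D (SE 0.15, limma adjusted p = 3.89e-08) and by 0.72 in 2D (SE 0.15, adjusted p = 9.43e-04). The effect in 3D was the larger fall, with a difference of -0.89 (SE 0.22, limma adjusted p = 0.00649). The means were 408 ± 71.3 with MPP and 1250 ± 250 untreated in 3D, and 273.5 ± 41.0 with MPP and 449 ± 50.1 untreated in 2D (SD, n = 4 each).

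FOSB, a close relative of FOS and the source of the long-lived splice form deltaFOSB, was near the limit of detection. It had 27.1, 7.1, 13 and 11 normalised counts in MPP 3D libraries, against 21.1, 9.4, 28.1 and 14.9 in untreated 3D libraries. In flat dishes it had 6.5, 5.4, 15.6 and 15.8 with MPP, against 29.3, 22.6, 23.6 and 8.5 untreated. The ranges overlapped in both cultures, and no comparison was called (limma adjusted p = 0.626 for MPP in 3D and 0.189 in 2D). The groups held 64 reads (MPP 3D), 58 (untreated 3D), 46 (MPP 2D) and 94 (untreated 2D), and the SE of each log2 change between groups was 0.525. The log2 change of -0.911 with MPP in 2D was not called, so even changes larger than the SE could be missed at this depth.

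JUN, the main activating partner in AP-1, moved little, and in opposite directions in the 2 cultures. It had 5256, 6020.3, 5765 and 5976 normalised counts in MPP 3D libraries, against 6473.5, 7099, 7093 and 7007 in untreated 3D libraries. In 2D culture the gene had 6506, 6929, 6677 and 6353 with MPP, against 6040.1, 5808, 5374 and 5176 untreated. The groups did not overlap in either culture, with MPP below untreated in 3D and above it in 2D. JUN fell by 0.27 on the log2 scale in 3D (SE 0.07, limma adjusted p = 0.00278), a call that was lost when libraries were scaled to equal totals (log2 -0.17, adjusted p = 0.0511). It rose by 0.24 in 2D (SE 0.07, limma adjusted p = 0.006). The difference of the effects was -0.51 (SE 0.09, limma adjusted p = 4.01e-04).

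JUNB, a JUN family member with weaker transactivation that is often described as a brake on JUN, had the largest estimated difference between the cultures of the 4 AP-1 members. It had 1183, 1264, 1179.7 and 1194 normalised counts in MPP 3D libraries, against 2344, 3183, 2958 and 3058 in untreated 3D libraries. In 2D it had 2373, 2416.5, 2208 and 2073 with MPP, against 2412, 1869, 2025 and 1906 untreated. The 4 MPP 3D libraries lay below the other 12, whereas the 2D groups overlapped. JUNB fell by 1.25 in 3D (SE 0.09, limma adjusted p = 7.16e-10) and had a log2 change of 0.15 in 2D that was not called (SE 0.09, adjusted p = 0.234), though it was with equal library totals (0.25, adjusted p = 0.0477). The difference was -1.40 (SE 0.13, limma adjusted p = 1.03e-07). JUNB shares 259 exon bases with HOOK2 on the opposite strand, and no source used here gives the strand setting of the counting. HOOK2, named for that overlap, had a log2 change of -0.25 with MPP in 3D (limma adjusted p = 0.233), and under MPP it was lower in 3D than in 2D (-0.50, adjusted p = 0.0143), the direction JUNB also has in that comparison.

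EGR1, the most abundant EGR mRNA and a factor that links growth factor and calcium signals to late genes, fell to 0.392 of its untreated mean in 3D and to 0.472 of it in 2D. It had 2571, 2634, 3043 and 2532 normalised counts in MPP 3D libraries, against 6111, 7757.5, 8069.7 and 5554 in untreated 3D libraries. The 2D libraries held 3566, 2784, 3011 and 3397 with MPP, against 6562, 7235, 6989.5 and 6239.9 untreated. All 8 MPP libraries were below all 8 untreated libraries, whatever the culture. The log2 change was -1.34 in 3D (SE 0.10, limma adjusted p = 1.29e-09) and -1.09 in 2D (SE 0.10, adjusted p = 5.07e-08). The difference of -0.25 (SE 0.15) was not called (limma adjusted p = 0.285).

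EGR2, known for myelin gene control in Schwann cells and expressed in activated neurons, and EGR3, a calcium- and neurotrophin-induced relative, were both rare and both dropped in MPP 3D libraries. EGR2 had 5.4, 10.7, 16.7 and 12.9 normalised counts there, against 48.6, 38.7, 28.1 and 37.3 in untreated 3D libraries, and 31.5, 37.7, 57.9 and 28.2 with MPP in 2D, against 20.7, 41.1, 47.1 and 31.8 untreated. EGR3 had 36.1, 17, 35.2 and 28.5 in MPP 3D libraries, against 86.6, 95.1, 70.2 and 55.2 in untreated 3D libraries, and 156, 111, 145 and 86.2 with MPP in 2D, against 62, 94.6, 66 and 86.8 untreated. For both genes the 4 MPP 3D libraries were below the other 12, and the 2D groups overlapped. EGR2 fell by 1.72 in 3D (SE 0.38, limma adjusted p = 0.00115), with 50 reads in the MPP group and 124 in the untreated group. EGR3 fell by 1.39 in 3D (SE 0.28, limma adjusted p = 4.80e-04). EGR3 shares 164 exon bases with an opposite-strand transcript that is not analysed here.

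In 2D neither gene was called by limma, EGR2 at a log2 change of 0.15 (adjusted p = 0.8) and EGR3 at 0.665 (adjusted p = 0.0683). EGR3 in 2D was called under 5 alternatives, among them edgeR (adjusted p = 0.0493) and DESeq2 (adjusted p = 0.0277). The limma fit without the fourth MPP 2D library, the lowest of its group, was also among these 5 (log2 0.83, adjusted p = 0.0362). The difference of the effects was -1.87 for EGR2 (SE 0.54, limma adjusted p = 0.0197) and -2.06 for EGR3 (SE 0.39, adjusted p = 7.32e-04). Without the third MPP 2D library, the highest for EGR2, the EGR2 difference was -1.66 and no longer called (adjusted p = 0.0537).

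NR4A1 (Nur77), a nuclear receptor that is regulated by its level rather than by a ligand, was the only member called higher with MPP in both cultures. It had 3549, 2512.5, 1970.5 and 2457 normalised counts in MPP 3D libraries, against 1239, 1214, 996 and 1172 in untreated 3D libraries. In flat dishes it had 1824, 1816, 1668 and 1599.7 with MPP, against 782, 839, 817 and 840.5 untreated. The 4 groups did not overlap at any step, in the order MPP 3D, MPP 2D, untreated 3D and untreated 2D. NR4A1 rose by 1.15 in 3D (SE 0.12, limma adjusted p = 1.44e-07) and by 1.07 in 2D (SE 0.12, adjusted p = 4.94e-07), and the difference of 0.08 (SE 0.17) was not called (adjusted p = 0.808). The first MPP 3D library was the highest of its group, and without it the rise in 3D was 0.998 (limma adjusted p = 9.84e-08). Annotation shows 754 exon bases of NR4A1 shared with an opposite-strand lincRNA that is not analysed here.

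NR4A2 was at the floor of these libraries. It had 7.2, 10.7, 5.6 and 3.7 normalised counts in MPP 3D libraries, against 4.2, 9.4, 11.2 and 6 in untreated 3D libraries. In 2D culture the gene had 3.2, 3.6, 11.1 and 10.6 with MPP, against 3.4, 2.1, 6.3 and 0 untreated. The groups overlapped throughout, no comparison was called, and the groups held 30 reads (MPP 3D), 24 (untreated 3D), 30 (MPP 2D) and 14 (untreated 2D). Of all recovered counts from 1 to 20 reads 70.1% were even, and 0 of the 32 values of FOSB and NR4A2 were odd, so a fragment may have been counted as more than 1 read, which was not tested. NR4A3, the remaining member of the family and not among the 10, was chosen after its values were seen and rose with MPP in both cultures. Its means were 297.5 with MPP and 162 untreated in 3D (log2 0.92, limma adjusted p = 3.94e-04), and 335 with MPP and 148 untreated in 2D (log2 1.18, adjusted p = 2.78e-05).

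IER2 fell slightly and alike in direction in the 2 cultures. It had 4531, 4601, 4083 and 4140.4 normalised counts in MPP 3D libraries, against 5524.5, 5934, 5275.5 and 6343 in untreated 3D libraries. In 2D it had 4092, 4256, 4170.2 and 3702 with MPP, against 5596, 5177, 4922 and 4759 untreated. All 8 MPP libraries were below all 8 untreated libraries. The log2 change was -0.41 in 3D (SE 0.07, limma adjusted p = 1.43e-04) and -0.33 in 2D (SE 0.07, adjusted p = 0.00114), and the difference was not called (adjusted p = 0.691). IER2 shares 946 exon bases with an opposite-strand antisense gene that is not analysed here.

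**Figure D2:**
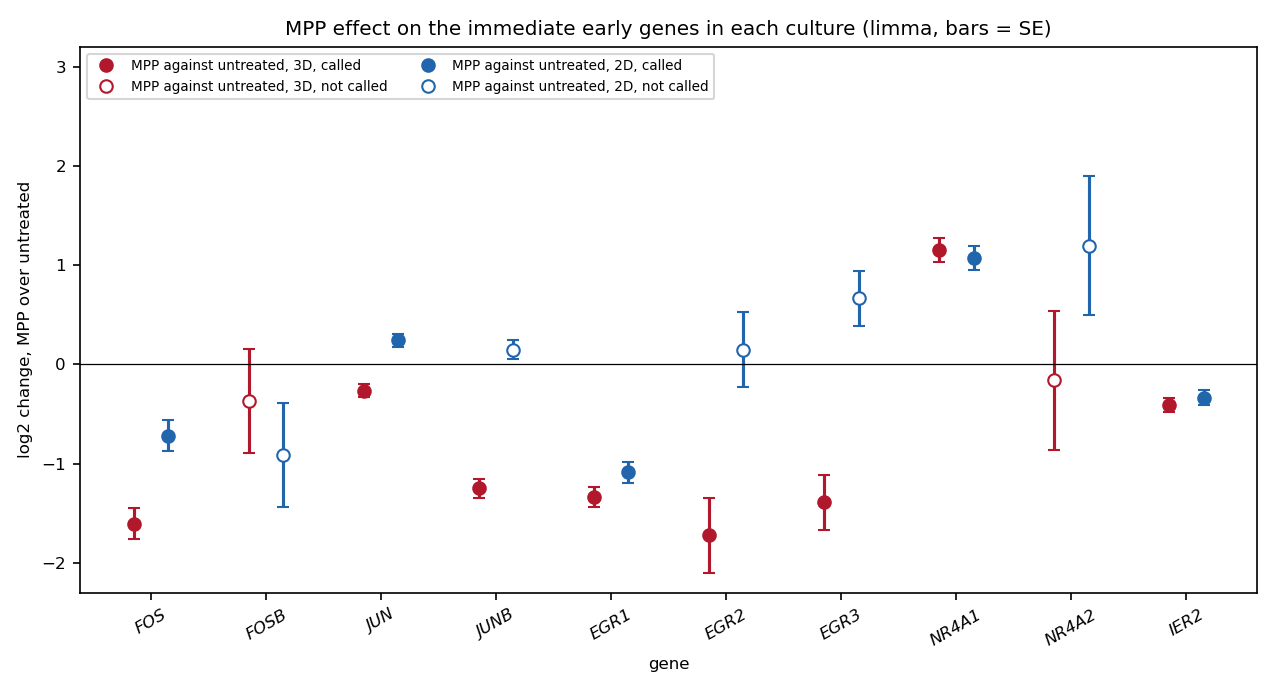
Log2 change with MPP against untreated (y axis, limma, bars are SE) for the 10 genes, with 3D left of 2D for each gene, and filled points for calls. The 3D point lies below the 2D point for every gene except FOSB and NR4A1, and NR4A1 is the only gene with called rises in both cultures.

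The untreated cultures were compared next. Among untreated libraries, 4 of the 10 genes were higher in 3D than in 2D and none lower (limma adjusted p under 0.05), where 46.1% of all genes were called, 23.2% higher and 23% lower, so the share of members called was not above that of all genes. At an unadjusted p under 0.05 by limma 5 were higher and 0 lower, and edgeR and DESeq2 each called 4 higher and 0 lower. Of all called genes 50.2% were higher in 3D, and 38.3% with nuclear totals, under which these 4 members were still called. FOS was 1.46 higher on the log2 scale in 3D (SE 0.15, limma adjusted p = 7.84e-08), JUN 0.31 (adjusted p = 5.33e-04), JUNB 0.49 (adjusted p = 1.96e-04) and NR4A1 0.49 (adjusted p = 0.00201). The ranges of FOS, JUN and NR4A1 did not overlap (3 of the 10, against 39.7% of all genes), and those of JUNB did. EGR1 had a log2 difference of 0.01 (SE 0.10, limma adjusted p = 0.951), with means of 6873 ± 1229 in untreated 3D and 6757 ± 443 in untreated 2D libraries (SD, n = 4 each). IER2 at 0.17 missed the threshold (limma adjusted p = 0.0566) and passed it without the first untreated 2D library (0.22, adjusted p = 0.0273) or without the third untreated 3D library (0.215, adjusted p = 0.0232).

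Under MPP, 2 of the 10 genes were higher in 3D than in 2D and 4 were lower, where 38.9% of all genes were called, 19% higher and 19.9% lower. FOS (log2 0.57, limma adjusted p = 0.00536) and NR4A1 (0.57, adjusted p = 6.52e-04) were higher in 3D. EGR3 was lower in 3D (log2 -2.07, mean 29.2 ± 8.83 in MPP 3D and 125 ± 31.8 in MPP 2D libraries, limma adjusted p = 3.78e-06), EGR2 was lower (-1.72, adjusted p = 0.00102) and JUNB was lower (-0.91, adjusted p = 8.74e-08). JUN was also lower (-0.20, limma adjusted p = 0.0169), a call that was lost without the first MPP 3D library (-0.16, adjusted p = 0.0632) or without the second MPP 2D library (-0.18, adjusted p = 0.0556). The ranges did not overlap for 5 of the 10 genes, against 37.5% of all genes. EGR1 at -0.24 was not called in the fit of all libraries (limma adjusted p = 0.0724), and was called when only the groups compared were fitted (adjusted p = 0.0375), without the third MPP 3D library (-0.3, adjusted p = 0.0371) or without the second MPP 2D library (-0.303, adjusted p = 0.036).

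Set in order, the 4 group means ranked differently from gene to gene. For FOS, untreated 3D stood above the rest, and each remaining neighbour in the order untreated 2D, MPP 3D and MPP 2D overlapped the next. For EGR1 and IER2 the untreated groups overlapped each other and stood above the MPP groups, which overlapped each other. For JUN, untreated 3D and MPP 2D overlapped and stood above MPP 3D and untreated 2D, which overlapped. For JUNB, EGR2 and EGR3, the MPP 3D group stood below the other three, whose neighbours overlapped. FOSB and NR4A2 gave no separation at any step.

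Levels between genes were compared per kilobase of merged exons. JUN was the most abundant of the 10 on this scale in MPP 3D (1630 normalised counts per kb) and MPP 2D (1870), whereas EGR1 led in untreated 3D (2190) and untreated 2D (2150). IER2 was at 1410 in MPP 3D, 1880 in untreated 3D, 1320 in MPP 2D and 1660 in untreated 2D, and JUNB at 662, 1590, 1250 and 1130 in the same order. FOS averaged 126 per kb in MPP 3D, 386 in untreated 3D, 84.5 in MPP 2D and 139 in untreated 2D. EGR2, EGR3, FOSB and NR4A2 stayed at 25.7 per kb or less in every group. These levels include reads of any splice form, since the length is that of all annotated exons.

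AP-1 dimers draw on the whole FOS and JUN families, so the composition of each family was measured as a share of its summed level per kb. FOS made up 60.3% ± 2.78 of the FOS family mRNA in MPP 3D and 72.3% ± 3.18 in untreated 3D libraries. In 2D it made up 40.8% ± 1.41 with MPP and 58.9% ± 3.31 untreated (SD, n = 4 each). The libraries ran from 38.8% to 42.1% with MPP in 2D and from 55.5% to 62.2% untreated in 2D, so these did not overlap. FOSL1, a FOS relative induced later and long-lived, had 27.6% ± 3.16 of the family in MPP 2D and 15.7% ± 1.86 in untreated 2D libraries, while its own level was not called (limma adjusted p = 0.133). In the JUN family JUND, a constitutive member, held 83.6% ± 0.734 in MPP 3D, 79.8% ± 0.976 in untreated 3D, 82.4% ± 0.972 in MPP 2D and 77.2% ± 0.906 in untreated 2D. In 3D the mean level of JUND itself was lower with MPP, at 21660 normalised counts against 26080 untreated. JUNB held 4.76% ± 0.109 in MPP 3D and 9.02% ± 0.738 in untreated 3D, and 7.04% ± 0.526 in MPP 2D and 9.49% ± 0.823 in untreated 2D. EGR1 was 96.2% or more of the EGR family mRNA in every group mean, and NR4A1 81.1% or more of the NR4A family.

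**Figure D3:**
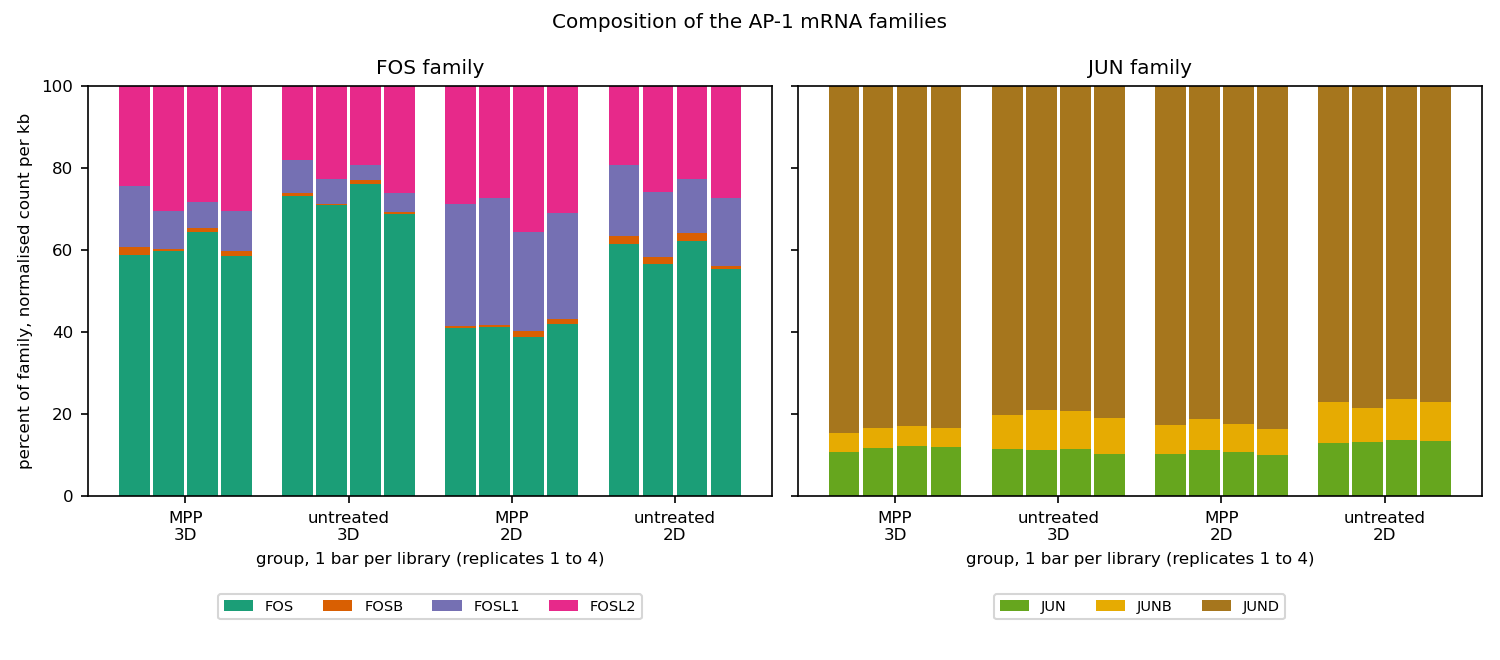
Share of each family's summed normalised count per kb (y axis, percent) held by its members, with 1 bar per library, for the FOS family (left) and the JUN family (right). FOS holds less of its family with MPP in both cultures (60.3% against 72.3% in 3D, and 40.8% against 58.9% in 2D), and JUND holds most of the JUN family throughout.

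Other AP-1 genes moved with MPP in other ways. Of 9 tested, 5 rose and none fell in 2D (median log2 0.55, against 0.02 over all genes), and 2 rose and 2 fell in 3D (median -0.05, against 0.003). The shares over all genes were 17.7% risen and 16.9% fallen in 2D, and 17% risen and 17.6% fallen in 3D. ATF3, a stress-induced bZIP factor, had a mean of 3484 with MPP and 1271 untreated in 2D (log2 1.45, limma adjusted p = 1.48e-12), and 3368 with MPP and 2800 untreated in 3D (0.27, adjusted p = 0.00694). JUND rose in 2D (log2 0.67, limma adjusted p = 2.02e-07), whereas its log2 change in 3D was -0.265. JDP2, a repressor of AP-1, rose in both cultures (0.84 in 3D, limma adjusted p = 8.08e-05, and 1.0 in 2D, adjusted p = 1.11e-05). FOSL2 fell in 3D (log2 -0.94, limma adjusted p = 1.17e-05). The difference of the effects was called lower in 3D for 3 of the 9, ATF3, FOSL2 and JUND, where 8.32% of all genes were called lower.

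Of 17 other rapid response genes tested, 9 rose and 1 fell with MPP in 2D (median log2 0.30), and 4 rose and 7 fell in 3D (median -0.38). Of all genes tested, 17.7% rose and 16.9% fell in 2D, and 17% rose and 17.6% fell in 3D. KLF10, a TGF-beta-induced factor, fell in 3D (mean 3833 with MPP and 9606 untreated, log2 -1.33, limma adjusted p = 2.39e-10), as did CSRNP1 (-1.21, adjusted p = 2.30e-08), while CEBPB rose (0.95, adjusted p = 5.17e-07). In 2D the largest called rises were those of CEBPB (1.38), TRIB2 (1.28) and PER1 (1.25). The difference was called lower in 3D for 8 of the 17 and higher for none, led by CSRNP1 (-1.51), BTG2 (-1.22) and TRIB1 (-1.13). For this difference 8.32% of all genes were called lower and 7% higher. Among untreated libraries 11 of the 17 were higher in 3D and 1 lower, where 23.2% of all genes were higher and 23% lower. The largest were SIK1, TRIB1 (log2 1.95) and BTG2 (1.47). SIK1 rested on few reads, with a mean of 21.8 normalised counts in untreated 3D and 4.12 in untreated 2D libraries.

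The factors that drive these promoters were also listed. Of 15 tested, 6 fell and none rose with MPP in 3D, led by MEF2C (log2 -0.73), MEF2D (-0.57) and CREM (-0.55), and 3 rose and 4 fell in 2D, where 34.6% of all genes were called in 3D and 34.5% in 2D. The 2D count depended on the scaling, with 3 risen and 0 fallen under equal library totals and 2 risen and 7 fallen under equal totals of nuclear genes, while both scalings gave 0 risen and 6 fallen in 3D. CREM, whose inducible ICER form represses cAMP-driven transcription, was 1.52 higher on the log2 scale in untreated 3D than in untreated 2D (mean 2373 against 822, limma adjusted p = 2.56e-11). The 2 NAB corepressors of EGR proteins were lower in 3D than in 2D both with MPP and untreated, and NAB2 rose with MPP in 2D (0.30, limma adjusted p = 0.0118).

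Feedback inhibitors of MAP kinase signalling, which are themselves rapid response genes, showed 5 of 13 risen and 1 fallen with MPP in 2D (median log2 0.14) and 2 risen and 3 fallen in 3D (median -0.085). These counts stand beside 34.5% of all genes called in 2D and 34.6% in 3D, and 5 of 13 in 3D is near that share. SPRY2 (log2 -1.0, limma adjusted p = 1.49e-06) and DUSP1 (-0.64, adjusted p = 5.68e-06), the phosphatase of JNK and p38, fell in 3D, and DUSP6, the ERK phosphatase, rose (0.35, adjusted p = 1.23e-04). In untreated libraries DUSP1 was 1.33 higher in 3D, while DUSP4 (-1.44) and SPRY1 (-1.54) were lower in 3D. The difference of the MPP effects was called lower in 3D for 5 of the 13 and higher for none, but for 3 and 1 when libraries were scaled to equal totals of nuclear genes. Without that scaling 8.32% of all genes were called lower and 7% higher for this difference.

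Targets known from active neurons gave no single direction. Of 13 tested, 1 rose and 5 fell with MPP in 3D, among them GADD45B (log2 -1.47), ARC, a synaptic scaffold gene (-1.17), and NRN1 (-1.13). In 2D 4 rose and 3 fell. Over all genes 17% rose and 17.6% fell in 3D, and 17.7% rose and 16.9% fell in 2D. VGF, a neuropeptide precursor, had a mean of 402200 with MPP and 188200 untreated in 2D (log2 1.10, limma adjusted p = 1.95e-09), and the neurotrophin BDNF fell there (-0.90, adjusted p = 0.00114). Of 6 heat shock genes, which respond to handling of tissue as well as to stress, 4 fell in 2D and 3 fell in 3D with MPP, and none rose, except that 1 rose in 2D when libraries were scaled to equal totals (16.9% of all genes fell in 2D and 17.6% in 3D). Among untreated libraries 1 of the 6 was called higher in 3D than in 2D and 0 lower (median log2 0.07), where 46.1% of all genes were called. This was DNAJB1, at 0.51 (limma adjusted p = 2.23e-06). Its part in the levels of the immediate early genes was not tested.

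**Figure D4:**
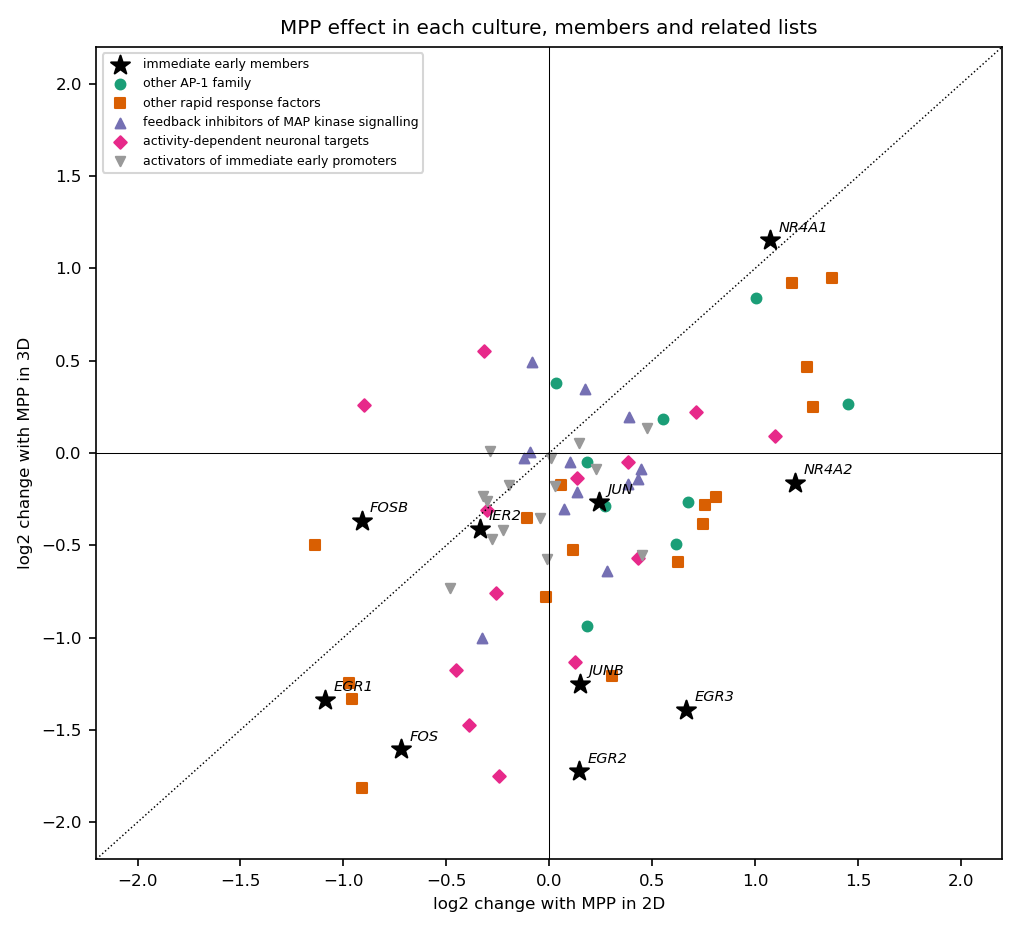
Log2 change with MPP against untreated in 3D (y axis) and in 2D (x axis), limma, for the 10 immediate early genes (stars) and the tested genes of 5 related lists, with a dotted line of equal change. The immediate early genes have a median of -0.83 in 3D and 0.15 in 2D, and NR4A1 is the member called higher in both.

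Over the 16 libraries, the genes whose pattern was most like that of FOS among 14030 with a mean of 50 or more were BNIP3L (Pearson r 0.977 on log2 values), PAICS (0.974) and KLF10 (0.972). For EGR1 they were SRSF8 (0.981), BZW1 (0.976) and FAM120A (0.974), and for NR4A1 they included AARS1 (0.985) and CASC3 (0.975). JUN had no gene as close, with FADS1 (0.86), RASL10A (0.857) and SLC25A1 (0.849). These values describe likeness of level across the 4 groups, which the libraries share. AARS1 averaged 25130 in MPP 3D and 7471 in untreated 3D libraries, and 14790 in MPP 2D and 4744 in untreated 2D libraries. Its groups stand in the same order as those of NR4A1, which picking it by this correlation makes likely.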

How the data were processed

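Poly-A RNA was sequenced in 16 libraries of SH-SY5Y cells, 4 per group, grouped by sample title. The deposited values are a signal that is never negative, read counts per gene divided by 1 size factor per library. Per the submitters' processing notes, the authors used CASAVA 1.8.2, FastQC, STAR, featureCounts and DESeq2 with GRCh38.p13. No source used here gives the annotation or the strand setting. All values (100%) were whole multiples of a library's step within 0.01 reads, so whole reads were recovered. The table lists genes with 11 or more reads in all.

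The test was limma 3.58.1 (R 4.3.3) on log2(value + 1) with its trend option. It ran over the 16984 genes that reached 10 in 4 or more libraries, as 1 fit of all groups, adjusted by Benjamini-Hochberg at 0.05. This scale understates the change of low genes. limma was kept as the main test after reads were recovered, with edgeR 4.0.16 and DESeq2 1.42.0 on the reads as alternatives. No 2 libraries of a group agreed within sampling noise (chi-square per degree of freedom 6.46 or more over 24 pairs). Replicate numbers did not pair the libraries. The script was tested on simulated data.

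Exon lengths came from GENCODE 29 and names from RefSeq, matched by Entrez number (19824 genes matched). The genes and the lists were chosen with earlier results of these data known. From each list up to 3 called genes with the largest absolute log2 change were named per comparison, and for FOS, EGR1, JUN and NR4A1 the 3 genes with the highest Pearson r, of which 1 is not reported here.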

Additional observations from a re-analysis of the deposited data

Results flagged for a closer look

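Of the 40 sets of 4 libraries (10 genes in 4 groups), 2 had a library far from the other three by Dixon's test, and chance alone flags about 1 set in 20. JUN had 6473.5 normalised counts in the first untreated 3D library, below the others of its group (gap over range 0.853). JUNB had 1263.9 in the second MPP 3D library, above the others of its group (0.835).

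The MPP effect differed between the cultures, as 3D minus 2D on the log2 scale, for FOS (-0.887, limma adjusted p = 0.00649), JUN (-0.509, adjusted p = 4.01e-04), JUNB (-1.398, adjusted p = 1.03e-07), EGR2 (-1.87, adjusted p = 0.0197) and EGR3 (-2.056, adjusted p = 7.32e-04). The means behind these differences are those of the 4 groups in the report, and their cause was not tested. The share of mitochondrially encoded mRNAs differed between the same groups.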

How the results depend on the processing

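Of 955 single-gene values under the alternatives tried (other scalings, pseudocounts of 0.5 and 5, no filter or a mean of 50 or more, edgeR, DESeq2, only the groups compared, a replicate block, and each library left out), 940 kept their direction and side of the threshold where called, 11 passed it newly, 4 no longer passed it and 0 reversed. The 15 that changed were EGR3, EGR1, IER2 and JUNB (newly passing) and JUN and EGR2 (lost), as given in the report, the cause being untested. Leaving out single libraries gave 4771 to 5510 genes called with MPP in 2D, 5247 to 5717 with MPP in 3D, 7017 to 7626 for 3D against 2D untreated, 5683 to 6293 under MPP and 2142 to 2912 for the difference of effects. The immediate early genes called were then 5 to 6, 8 throughout, 4 to 5, 5 to 7 and 4 to 5. With the replicate number as a block the genes called were 5675, 5706, 7634, 6451 and 2436, and the immediate early genes called 5, 8, 4, 6 and 5, so the block changed no call of a member. The numbers did not pair the libraries: 0 of 24 correlations exceeded 0.1 (-0.115 to 0.09), and libraries correlated best with their own number in 12 of 48 checks. A mean of 50 or more left 7 members tested, and fitting only the groups compared gives no difference of effects. Depth limits FOSB, NR4A2 and EGR2, where few reads were counted.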
